A study of Homo sapiens with 4 samples.

Results

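The IFIT and IFITM genes are families of antiviral effectors whose transcription is switched on by interferon. Members were taken by name from the deposited table, which lists 20323 genes, and all 7 sought had a row: IFIT1, IFIT2, IFIT3 and IFIT5 of the first family and IFITM1, IFITM2 and IFITM3 of the second. All 7 passed the filter on low counts. They were measured in NK-92, an interleukin 2-dependent human line of natural killer (NK) cells, in 2 libraries of NK scramble cells, transduced by lentivirus with a scrambled control hairpin, and 2 libraries of NK shADAR1 cells, transduced in the same way with a hairpin against ADAR1. The labels name no added interferon, virus or tumor cells, and both groups carried a lentiviral hairpin, so no untransduced cells stand beside them. The study describes the libraries as independent biological replicates of a single cell line. The sample names number the knockdown libraries 1 and 2, which are also the numbers of the study's hairpins, and the labels alone do not say whether both libraries carried the same hairpin. The paper's text names NK shADAR1-2 as the knockdown cells that were sequenced. The comparison asks what ADAR1, the enzyme that edits adenosine to inosine in double-stranded RNA, does to gene expression in NK cells.

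IFIT proteins are cytosolic and built from tetratricopeptide repeats. IFIT1 holds the capped end of RNAs that lack ribose methylation and blocks their translation, IFIT3 binds and stabilizes IFIT1, IFIT2 joins the same complex, and IFIT5 binds RNAs with a 5′ phosphate. IFITM proteins are small membrane proteins that hinder the fusion of virus and cell membranes, IFITM1 mainly at the cell surface and IFITM2 and IFITM3 mainly in endosomes. Type I interferon acts on both families through ISGF3, a complex that contains STAT2 and IRF9 and binds the interferon-stimulated response element (ISRE).

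The families lie in 2 clusters. In the GENCODE 29 annotation of GRCh38, IFIT2, IFIT3, IFIT1 and IFIT5 follow each other on the plus strand of chromosome 10 and span bases 89283694 to 89421001. IFITM2 and IFITM1 lie on the plus strand of chromosome 11 and IFITM3 on the minus strand, within bases 307631 to 327537. RefSeq promoter windows, which run from 250 bases before to 50 bases after a start site on GRCh38.p14, were at hand for 5 of the 7 members. IFIT2 and IFITM2 have no window in the table. Each window was searched on both strands for the ISRE core, which is GAAA, any 2 bases (NN) and GAAA again, or TTTC, NN and TTTC on the other strand. The core was found in the windows of 5 of 5 members, in 72.0% of the 25 other antiviral genes with a window and in 4.38% of all 27305 genes with a window (3.57% of all 35116 windows). Because it is the sequence that the members share, 1 match is shown for each member, 5′ to 3′ on the strand of the gene, with the core in capitals.

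IFIT1, chr10:89392497-89392526, plus strand: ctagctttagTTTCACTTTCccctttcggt
IFIT3, chr10:89327865-89327894, plus strand: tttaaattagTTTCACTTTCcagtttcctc
IFIT5, chr10:89414539-89414568, plus strand: ttacgtttagTTTCGATTTCttaagtttca
IFITM1, chr11:314024-314053, plus strand: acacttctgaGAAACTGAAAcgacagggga
IFITM3, chr11:320876-320905, minus strand: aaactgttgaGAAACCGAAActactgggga

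In the IFIT windows the repeated letters are TTTC on the strand of the gene, whereas in the IFITM windows they are GAAA. IFIT1 and IFIT3 share all 10 letters of the core shown, TTTCACTTTC. The other matches shown differ from that core and from each other at the free positions. A further match in the other window of IFIT3, not shown, also reads TTTCACTTTC. The windows of IFIT1, IFITM1 and IFITM3 hold 2 matches each, that of IFIT5 holds 3, and IFIT3 has 2 windows with 2 matches each. The gamma-activated site TTCNNNGAA, which reads the same on both strands, was found in the window of IFITM1 alone among these members, where it overlaps the ISRE core shown, and in that of 9.38% of all genes with a window (7.66% of all windows). A match is a description of the letters and does not show that a factor was bound in these cells.

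Depth was even. The libraries held 37881704 to 39960491 estimated counts, and the log2 CPM (TMM-normalized counts at a common depth) of the replicates correlated across genes at r = 0.981 within each group and at 0.981 to 0.989 between groups. The targeted gene ADAR, which encodes ADAR1, stood at 655 and 682 CPM in the controls, NK scramble replicates 1 and 2, and at 575 and 482 CPM in NK shADAR1 replicates 1 and 2. Both knockdown libraries were below both controls, with a log2 fold change of -0.34 ± 0.20 (SE), which did not pass the test (edgeR adjusted p = 1.00). Replicate 2 held 72.1% of the mean ADAR level of the controls and replicate 1 held 86.0%. The paper reports effective ADAR1 knockdown in NK-92 cells by qRT-PCR and western blot. The NK cell markers NCAM1, NKG7, KLRD1, PRF1, GZMB, CD7 and IL2RB were all detected, and 0 of 7 were called. Their summed level was 3870 to 4310 CPM in the control libraries and 3930 to 4450 CPM in NK shADAR1. Markers of T, B, myeloid and erythroid cells and of CD16 summed to 11.2 to 13.0 CPM in the control libraries and 13.6 to 15.8 CPM in NK shADAR1, mostly from FCGR3A, and MS4A1 and HBB were at 0 in all 4 libraries.

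None of the 7 members passed the test between groups (0 of 7 called, where 0% of the 11810 tested genes were called by edgeR, with the threshold of 0.05 on the adjusted p and of 1.5 on the fold change). At an unadjusted p under 0.05, 293 genes (2.48%) passed when the fold change was set aside, and DESeq2 also called 0 genes. What the members showed was a difference in evenness. The IFIT genes were lowest in NK shADAR1 replicate 2, all 4 of them, as were 21.1% of all tested genes, and there they stood at 22.2% to 41.4% of the NK scramble mean. In NK shADAR1 replicate 1 IFIT1 stood at 59.3% of that mean and the other 3 genes at 91.8% to 113%. IFITM1 and IFITM2 stayed within 72.1% to 90.0% of the NK scramble mean in both knockdown libraries, and IFITM3 was hardly expressed. In bulk RNA, less RNA per cell and fewer cells that express a gene cannot be told apart.

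**Figure D1:**
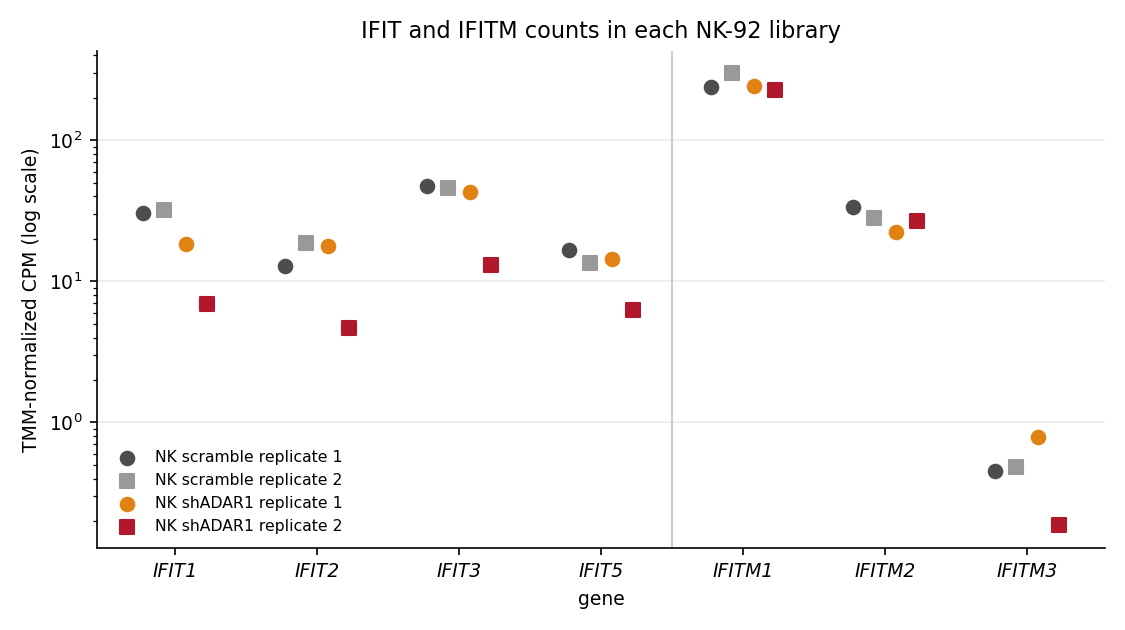
TMM-normalized CPM (log scale) of each IFIT and IFITM gene in each of the 4 NK-92 libraries, 1 point per library. All 4 IFIT genes are lowest in NK shADAR1 replicate 2 (4.66 to 13.0 CPM), whereas the points of IFITM1 (228 to 298 CPM) and IFITM2 (22.3 to 33.6 CPM) lie close together.

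IFIT1, the member that binds the capped end of unmethylated RNA, stood at 30.4 and 31.9 CPM in the controls, NK scramble replicates 1 and 2, and at 18.5 and 6.91 CPM in NK shADAR1 replicates 1 and 2. Both knockdown libraries lay below both controls, and the controls were nearly equal. The mean was 31.1 ± 1.12 CPM in the control libraries and 12.7 ± 8.17 CPM in NK shADAR1 (SD, n = 2 each). The log2 fold change was -1.29 ± 0.37 (SE). In edgeR its unadjusted p was 0.00541 and its adjusted p 1.00, and in DESeq2 the adjusted p was 0.534. IFIT1 was the only member past an unadjusted p of 0.05 with the same fold change, and it was lower. By that rule 0.542% of all tested genes were lower and 1.26% were higher. The counts behind it ran from 1255 in NK scramble replicate 2 to 258 in NK shADAR1 replicate 2, so counting error was small beside the spread between the knockdown libraries. Without NK shADAR1 replicate 2, the log2 fold change was -0.76. Without NK shADAR1 replicate 1 it was -2.17, without NK scramble replicate 1 it was -1.34 and without NK scramble replicate 2 it was -1.26. Such a fit leaves 1 library in a group, so only its fold change is given here.

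IFIT3, the partner that stabilizes IFIT1, had the highest level of the IFIT family in each library. It stood at 47.4 and 45.6 CPM in the control libraries and at 42.7 and 13.0 CPM in NK shADAR1. The first knockdown library was only just below the controls, at 91.8% of their mean, and the second was at 28.0%. The log2 fold change was -0.74 ± 0.41 (SE) and did not pass the test (edgeR adjusted p = 1.00). Leaving out NK shADAR1 replicate 2 gave -0.13. Leaving out NK shADAR1 replicate 1 gave -1.84.

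IFIT2, which joins the complex of IFIT1 and IFIT3, stood at 12.8 and 18.7 CPM in the control libraries and at 17.8 and 4.66 CPM in NK shADAR1. The groups overlapped, since NK shADAR1 replicate 1 lay between the controls. The log2 fold change was -0.49 ± 0.48 (SE, edgeR adjusted p = 1.00), and it turned to 0.17 when NK shADAR1 replicate 2 was left out and was -1.76 when replicate 1 was.

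IFIT5, which binds RNAs with a 5′ phosphate, stood at 16.8 and 13.5 CPM in the control libraries and at 14.5 and 6.27 CPM in NK shADAR1. Replicate 1 again lay between the controls, and replicate 2 was at 41.4% of their mean. The log2 fold change was -0.54 ± 0.35 (SE, edgeR adjusted p = 1.00), and it was -0.06 when NK shADAR1 replicate 2 was left out and -1.27 when replicate 1 was. The median log2 fold change of the 4 IFIT genes was -0.64, beside 0.00 for all tested genes. Taken library by library against the NK scramble mean, that median was -0.09 in NK shADAR1 replicate 1 and -1.78 in replicate 2, beside 0.00 and 0.01 for all tested genes.

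IFITM1, the member at the cell surface, stood at 239 and 298 CPM in the control libraries and at 242 and 228 CPM in NK shADAR1. The groups overlapped, and the controls differed from each other more than the knockdown libraries did. The log2 fold change was -0.19 ± 0.20 (SE, edgeR adjusted p = 1.00).

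IFITM2, found mainly in endosomes, stood at 33.6 and 28.2 CPM in the control libraries and at 22.3 and 26.7 CPM in NK shADAR1. Both knockdown libraries were below both controls, by a log2 fold change of -0.34 ± 0.21 (SE, edgeR adjusted p = 1.00). Here replicate 1 was the lower of the knockdown libraries, the reverse of the order in the IFIT family. IFIT1, IFIT3 and IFITM2 were thus the 3 of 7 members whose groups did not overlap with the knockdown lower, an order that 12.6% of all tested genes showed.

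IFITM3, the other endosomal member, had 18 and 19 counts in NK scramble and 31 and 7 counts in NK shADAR1, or 0.451, 0.484, 0.788 and 0.187 CPM. The knockdown libraries lay on either side of the controls. For the lowest library the exact Poisson interval, which covers counting error only, ran from 0.0754 to 0.386 CPM, and for the highest from 0.535 to 1.12 CPM. The log2 fold change of 0.07 had a standard error of 0.71, and the knockdown libraries differed from each other by more than these intervals. Without NK shADAR1 replicate 1 it was -1.30, and it was 0.75 when replicate 2 was left out. The median log2 fold change of the 3 IFITM genes was -0.19.

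**Figure D2:**
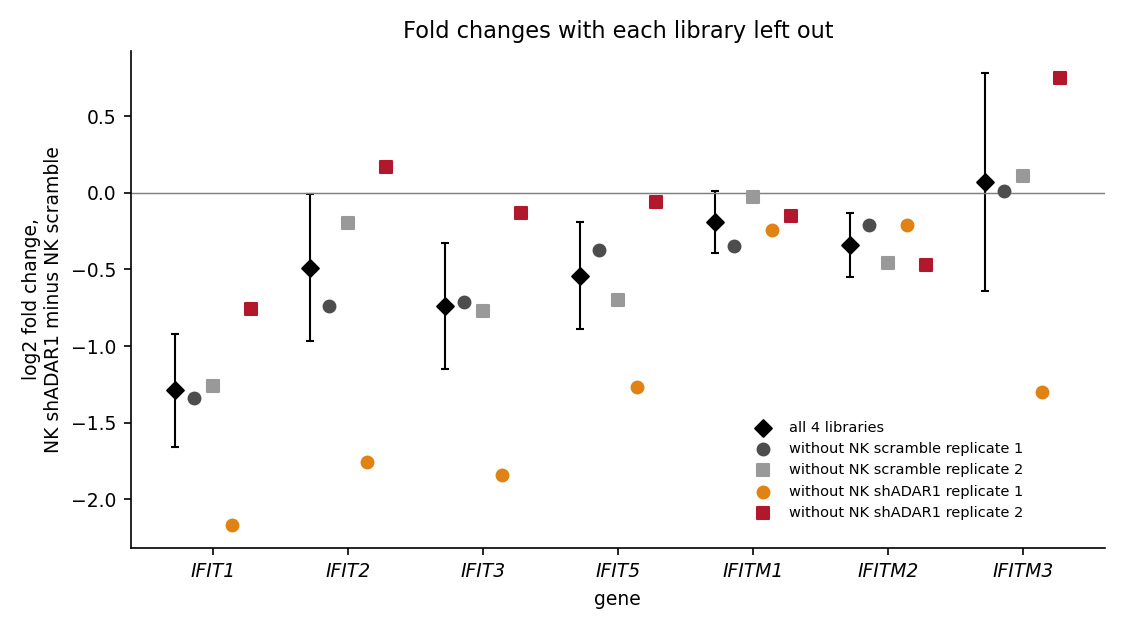
Log2 fold change (NK shADAR1 minus NK scramble, edgeR) of each member with all 4 libraries, shown as diamonds with the standard error as bars, and with each library left out in turn. Leaving out either knockdown library moves the 4 IFIT genes apart, for IFIT1 to -2.17 and -0.76, while the values of IFITM1 and IFITM2 all stay between -0.47 and -0.03.

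The unevenness was then measured within each group, as the log2 CPM of replicate 2 minus that of replicate 1. In NK shADAR1 this difference was -1.41 for IFIT1, -1.92 for IFIT2, -1.71 for IFIT3 and -1.21 for IFIT5. All 4 genes were at -1 or lower, where 4.04% of tested genes lay. Between the NK scramble libraries the same difference was -0.32 to 0.54 for the 4 genes, with 2 below 0 and 2 above, and 2.68% of tested genes were at -1 or lower. Of all tested genes, 1.92% had a difference in NK shADAR1 at or below that of IFIT1, and 0.711% at or below that of IFIT2. IFITM1 and IFITM2 differed by -0.09 and 0.26 between the knockdown libraries, and 42.2% and 76.4% of tested genes were at or below these values. IFITM3 differed by -1.81, on 31 and 7 counts. These differences between libraries of the same group were not tested, since each is a pair of single values.

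**Figure D3:**
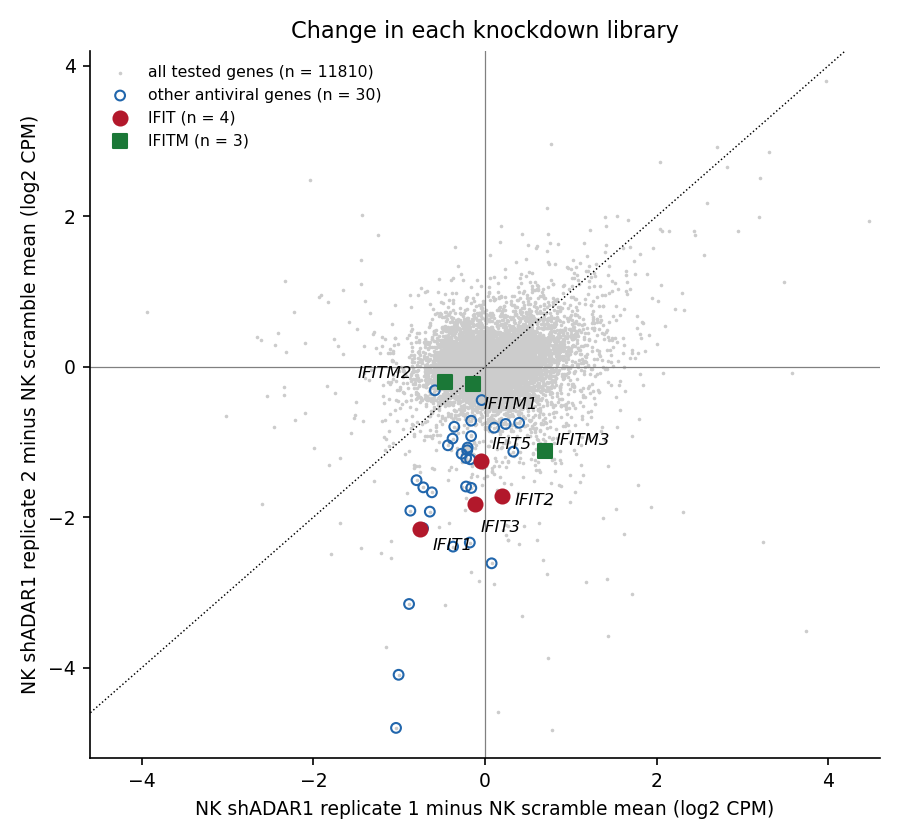
Log2 CPM of each tested gene in NK shADAR1 replicate 1 (x axis) and replicate 2 (y axis), each minus the mean of the NK scramble libraries, which both axes share. The dotted line marks equal change. The IFIT genes lie below it, at -0.75 to 0.20 on the x axis and -2.16 to -1.26 on the y axis, among the other antiviral genes, and IFITM1 and IFITM2 lie near the line.

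FPKM values, which divide by transcript length, allow levels to be compared between genes. On this scale IFITM1 was far above the rest, at 360 and 437 FPKM in NK scramble and 378 and 330 FPKM in NK shADAR1, and IFITM2 followed at 45.9, 36.2, 30.0 and 32.5 FPKM in the same order. IFIT3 came next with 19.7, 24.1, 18.2 and 5.08 FPKM. IFIT1 (1.56 to 7.30 FPKM), IFIT5 (2.31 to 5.83 FPKM) and IFIT2 (1.32 to 5.93 FPKM) overlapped in their ranges and could not be ordered. IFITM3 was the lowest in every library, with 0.25 to 1.55 FPKM. IFITM1 thus made up 88.5% to 92.3% of the summed IFITM FPKM and IFIT3 made up 49.5% to 57.9% of the summed IFIT FPKM. The sums were 36.9, 41.6, 33.8 and 10.3 FPKM for the IFIT family and 407, 474, 410 and 362 FPKM for the IFITM family, in NK scramble replicates 1 and 2 and NK shADAR1 replicates 1 and 2. The IFIT sum in the last library was the lowest, and IFIT3 was first in all 4 libraries with no other member above 22.5%. In NK scramble replicate 2 the FPKM of IFIT3 was divided by a shorter length, 1859 bases beside 2427 in NK scramble replicate 1. That raised its share (57.9%) and the IFIT sum (41.6 FPKM) in that library.

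The IFITM genes resemble each other in sequence, and their values may depend on how reads were shared among them. Over the aligned 713 bases, the transcripts of IFITM2 and IFITM3 were 93.8% identical, whereas pairs of IFIT transcripts reached 72.8% to 80.8%. For each member, the stretches of 100 bases in its longest coding transcript were sought in all transcripts of other genes. For IFITM1 37.7% also occurred in another gene, against 5.92% for IFITM3 and 0% for IFITM2. The genes that held the IFITM1 stretches were IFITM2 and IFITM3. The 0% thus covers the longest IFITM2 transcript only, and not all transcripts of that gene. Among the IFIT genes this share was 7.13% for IFIT2 and 0% for IFIT1, IFIT3 and IFIT5. In the annotation the IFITM2 gene ends at the same base as IFITM1, base 315272, so the gene models overlap. The deposited counts of the IFIT genes were whole numbers, whereas those of the IFITM genes included fractions, as for IFITM1 in NK scramble replicate 1 with 9555.97. With the 3 IFITM genes summed into 1 feature, which removes the split among them, the log2 fold change was -0.21 ± 0.20 (SE, edgeR adjusted p = 1.00). The gene span of LIPA, which encodes a lysosomal lipase, overlaps the IFIT cluster on the opposite strand. The library kit named in the labels does not mark strand, so strand does not separate reads from the overlap. In sequence, only the IFIT2 transcript among the IFIT genes shared stretches of 50 bases with LIPA transcripts. None shared stretches of 100 bases with them. LIPA stood at 58.7, 65.3, 52.6 and 56.4 CPM and did not share the low value of NK shADAR1 replicate 2. Family relatives were close to absent: IFIT1B had 0 to 1 counts, IFITM5 0 to 1 and IFITM10 3 to 12.

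The tested neighbours of the IFIT cluster did not show the low values of NK shADAR1 replicate 2. Of LIPA and the 3 nearest protein-coding genes on each side of the IFIT cluster, 5 of 7 passed the filter on low counts, 0 were called, and 0 were lower in NK shADAR1 replicate 2 than in replicate 1. Their median log2 fold change was 0.00. Around the IFITM cluster 5 of 6 neighbours were tested, with 0 called and a median log2 fold change of 0.18. Of these, 4 of 5 were lower in NK shADAR1 replicate 2 than in replicate 1, with a median difference of -0.72, and 1, NLRP6, was lower by 1 or more on the log2 scale (-1.06, on 22 and 9 counts).

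Upstream of both families, the interferon genes themselves were at the edge of detection apart from IFNG. IFNA1 and IFNA2 had at most 1 count in any library, and IFNB1, which encodes interferon beta, was at 0.0751 and 0.458 CPM in the control libraries and 0.254 and 0 CPM in NK shADAR1. IFNG, which encodes interferon gamma, an NK cell cytokine, stood at 32.3 and 60.0 CPM in the control libraries and at 19.7 and 22.5 CPM in NK shADAR1. Its groups did not overlap, with a log2 fold change of -1.13 ± 0.28 (SE, unadjusted p = 0.00236 and adjusted p = 1.00 in edgeR), and its knockdown libraries were close to each other.

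The log2 fold changes of IFNAR1 and IFNAR2, the receptor chains for type I interferon, were -0.12 and 0.11, and those of the kinases JAK1 and TYK2 were 0.07 and 0.01. Of the factors of ISGF3, STAT2 stood at 36.7 and 55.8 CPM in the control libraries and 42.7 and 38.5 CPM in NK shADAR1, with overlapping groups. IRF9 stood at 47.6 and 41.7 CPM in the control libraries and at 38.1 and 13.3 CPM in NK shADAR1, the order of IFIT3. Its log2 fold change was -0.80 ± 0.38 (SE, edgeR adjusted p = 1.00).

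IRF7, which drives interferon genes and is itself induced by interferon, stood at 75.9 and 38.4 CPM in the control libraries and at 39.2 and 5.94 CPM in NK shADAR1, and was lowest in replicate 2 as the IFIT genes were. USP18, which damps signaling at the type I interferon receptor, was more even, at 37.5 and 39.3 CPM in the control libraries and 21.6 and 15.5 CPM in NK shADAR1. Its log2 fold change was -1.05 ± 0.22 (SE), with an unadjusted p of 0.000838 and an adjusted p of 1.00 in edgeR. Of the 22 genes in this list, 17 were tested, 0 were called, and the median log2 fold change was -0.19. At an unadjusted p under 0.05 with the fold change, 3 of them were lower and 0 higher, beside 0.542% and 1.26% of all tested genes.

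Most other antiviral genes induced by interferon were, like the IFIT genes, lower in NK shADAR1 replicate 2 than in replicate 1. Of 30 such genes, all were tested and 0 were called, and their median log2 fold change was -0.69. All 30 log2 fold changes were negative, beside 50% of all tested genes. At an unadjusted p under 0.05 with the fold change, 12 of 30 were lower and 0 higher, beside 0.542% and 1.26% of all tested genes. In 22 of 30 both knockdown libraries were below both controls, an order that 12.6% of all tested genes showed. In 29 of 30 NK shADAR1 replicate 2 was below replicate 1, as in 5972 of all 11810 tested genes. In 16 of 30 it was lower by 1 or more on the log2 scale, as in 4.04% of all tested genes. The median difference of the 30 genes was -1.02. Against the NK scramble mean, their median was -0.25 in NK shADAR1 replicate 1 and -1.22 in replicate 2. For the IFIT genes these medians were -0.09 and -1.78.

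MX1, which blocks virus replication and transport, stood at 565 and 519 CPM in the control libraries and 293 and 60.8 CPM in NK shADAR1. ISG15, a ubiquitin-like modifier, stood at 95.9 and 114 CPM in the control libraries and 68.1 and 32.9 CPM in NK shADAR1. OAS1, a sensor of double-stranded RNA, stood at 85.6 and 91.4 CPM in the control libraries and 53.5 and 19.9 CPM in NK shADAR1. For these 3 genes, as for IFIT1, both knockdown libraries were below both controls and replicate 2 was the lower. BST2, a membrane protein that tethers virus particles to the cell, was the exception of the 30, with 362 and 389 CPM in the control libraries and 250 and 302 CPM in NK shADAR1, where replicate 1 was the lower, as for IFITM2. The list was chosen with results of these libraries known, so its direction is not independent evidence.

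**Figure D4:**
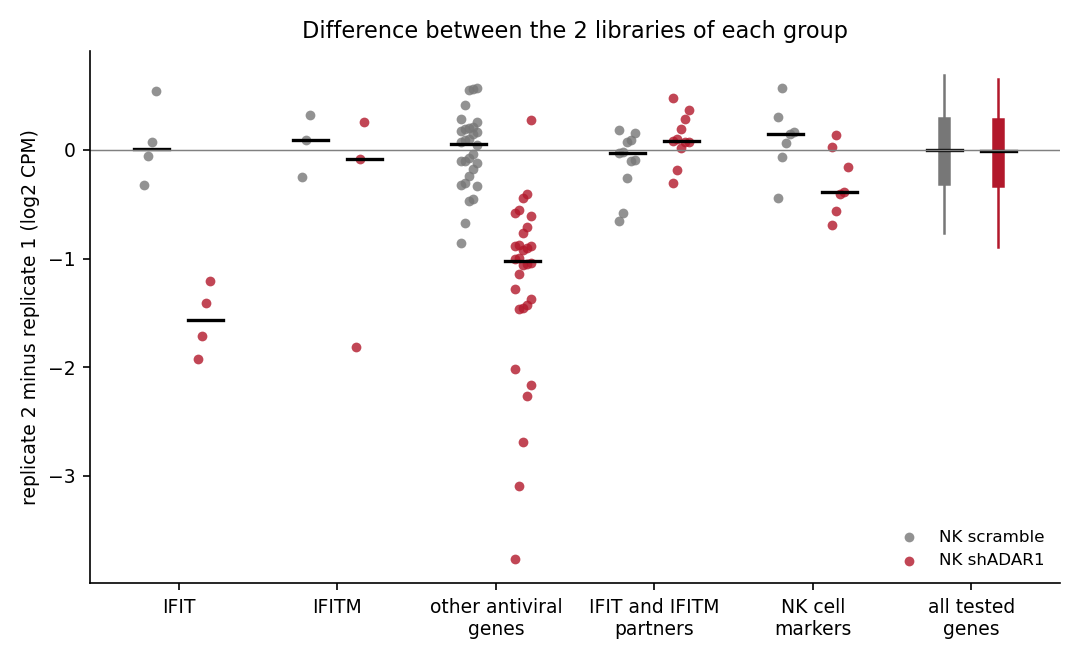
Log2 CPM of replicate 2 minus replicate 1 within NK scramble and within NK shADAR1, 1 point per gene and a black line at the median of each list. For all tested genes the thick bar spans the 25th to the 75th percentile and the thin bar the 5th to the 95th. The medians of the IFIT genes (-1.56) and the other antiviral genes (-1.02) are low in NK shADAR1 and near 0 in NK scramble (0.01 and 0.06). Single genes of these lists run from -0.32 to 0.54 and from -0.86 to 0.57 in NK scramble. The median of the partners is near 0 in NK shADAR1 too (0.08).

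Genes whose products work with or on the IFIT and IFITM proteins did not share the low values. This list held CMTR1 and CMTR2, the enzymes that methylate ribose near the cap. It also held EIF3C and EIF3E, subunits of the translation initiation factor that IFIT proteins bind, and MAVS and TBK1 of the RNA sensing pathway. For the IFITM proteins it held ZMPSTE24, VAPA, NEDD4, SETD7, ZDHHC20 and ABHD16A. Of the 12 genes 11 were tested, 0 were called, and the median log2 fold change was -0.05. Their median difference between the knockdown libraries was 0.08, and 2 of 11 were lower in replicate 2. CMTR1 stood at 166 and 176 CPM in the control libraries and 135 and 142 CPM in NK shADAR1, and CMTR2 at 22.1 and 18.5 CPM against 22.3 and 22.6 CPM. NEDD4, a ubiquitin ligase for IFITM3, had 1 count in 1 library.

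The genes with profiles most like those of the families were sought over the 4 libraries, by the root mean square difference of log2 CPM from the mean profile of the family after each was centred on its own mean. For the IFIT family the nearest were CMPK2, a mitochondrial nucleotide kinase induced by interferon, at 0.079, and IRF9 at 0.09. ZNF878, ERFL and CHRNA10 followed at 0.098, 0.118 and 0.13, all 3 at low levels (0.0803 to 1.32 CPM). For the IFITM family the nearest were ACYP2 (0.027), PYGM (0.047), TUBGCP4 (0.05), IRF1 (0.052) and XCR1 (0.052). The IFITM profile is nearly flat and is weighted by the low counts of IFITM3, and 4 libraries are few for a measure of likeness.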

How the data were processed

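Poly(A)-selected RNA of 4 NK-92 libraries was sequenced. For each gene the authors deposited an unnormalized estimated count, not always whole, and an FPKM value scaled by length and depth. The submitters' processing notes name fastp 0.18.0; the aligner, counting program, genome build and annotation are not given in the sources used here. Identifiers were matched to symbols for 20301 of 20323 genes.

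Rounded counts were filtered with filterByExpr (minimum count 10), TMM-scaled and tested in R 4.3.3 by the edgeR 4.0.16 quasi-likelihood test, without covariates. Called genes had a Benjamini-Hochberg adjusted p under 0.05 over 11810 genes and a fold change of at least 1.5. The SE of a log2 fold change is |log2 fold change| over the root of F. Alternatives used DESeq2 1.42.0, limma 3.58.1 on log2 FPKM, other scalings, filters and call rules, a replicate block and left-out libraries. The depth of 37881704 to 39960491 counts makes counting error small except for low genes. An exact permutation test of 2 against 2 libraries cannot give a two-sided p below 0.333 and was not used. Scripts were tested on simulated data. CPM of single genes use TMM-scaled library sizes, and differences of log2 CPM between libraries use a prior count of 2.

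Members, lists and named genes were chosen with earlier results of these data known. Named genes are the members, ADAR, family relatives, neighbours, the nearest profiles and list genes, of which the text gives examples picked after their values were seen; 1 gene of the signaling list is not reported here. Shared stretches and identities come from GENCODE 29 transcripts, and promoters from RefSeq.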

Additional observations from a re-analysis of the deposited data

How the results depend on the processing

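Calls depended on single libraries. Leaving out 1 library gave 1 to 47 called genes (47 without NK scramble replicate 1, 2 without NK scramble replicate 2, 16 without NK shADAR1 replicate 1 and 1 without NK shADAR1 replicate 2) and 0 to 2 called members. Those were IFIT1 without NK scramble replicate 1 (adjusted p = 0.00333 in edgeR), and IFIT1 (0.0103) and IFIT3 (0.0204) without NK shADAR1 replicate 1. A group left with 1 library is assumed to vary like the other. Over these omissions the IFIT median ran from -1.80 to -0.09 and the IFITM median from -0.24 to -0.03. IFIT2 ran from -1.76 without NK shADAR1 replicate 1 to 0.17 without NK shADAR1 replicate 2, and IFITM3 from -1.30 to 0.75 with the same omissions.

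With the replicate number as a block, 13 genes and 1 member were called, IFIT1 at an adjusted p of 0.0425 in edgeR, and IFITM3 turned to -0.13. The deviations of same-numbered libraries correlated at 0.308 over 2 pairs, and no label ties the numbers to a shared batch, so the numbers were not taken as pairing. Unadjusted p-values with the fold change gave 213 genes and 1 member. The cause of these shifts was not tested. RLE and upper quartile scaling, both other filters, DESeq2, log2(FPKM + 1) in limma and dropping the fold change threshold called 0 members and reversed none. IFITM3 has no value with a mean of at least 50 counts, which removes it.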

Other observations

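The deposited count and FPKM of a gene together give the transcript length that FPKM divided by, once the count is set against the summed counts of the library. For IFIT1 this length was 4301 to 4310 bases in the 4 libraries. For IFIT3 it was 2427 bases in NK scramble replicate 1, 1859 bases in NK scramble replicate 2, and 2441 and 2482 bases in NK shADAR1 replicates 1 and 2. NK scramble replicate 2 stood apart, and IFIT3 was therefore higher in that library than in NK scramble replicate 1 by FPKM (24.1 against 19.7) and slightly lower by CPM (45.6 against 47.4). For IFIT2 the length was 3062 and 3394 bases in NK scramble and 3113 and 3427 bases in NK shADAR1. Here the replicates numbered 2 had the longer values in both groups. IFIT5 showed the reverse order, with 2917 and 2762 bases in NK scramble and 2889 and 2625 bases in NK shADAR1. For IFITM3, with few counts, it was 530 to 735 bases. Whether the transcripts in use differed between the libraries was not tested, since the deposited values are per gene.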
